A study of Mus musculus with 16 samples.

Results

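The genes described here encode the protein components of the cytosolic ribosome. They were chosen by name: protein-coding mouse genes whose symbol is Rpl or Rps followed by a number, together with Rpsa, Rplp0, Rplp1 and Rplp2, without pseudogenes and without the kinases of ribosomal protein S6. The rule gave 86 of the 55385 genes in the tables. Of these, 46 belong to the large (60S) subunit, 31 belong to the small (40S) subunit, 8 are paralogues of such a gene (Rpl3l, Rpl7l1, Rpl10l, Rpl22l1, Rpl36al, Rpl39l, Rps27l and Rps27rt), and 1, Rps19bp1, has the name but encodes a protein that binds Rps19 and is not a subunit of the ribosome.

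RNA was sequenced from primary hippocampal cultures of newborn C57Bl/6N mice that were infected with recombinant adeno-associated viruses. All cultures carried a viral construct with a U6 promoter that drove an shRNA and a chicken β-actin promoter that drove GFP, so the controls were infected too. The shRNA was either Control-shRNA or Dnmt3a1-shRNA, directed against the long isoform of the DNA methyltransferase Dnmt3a and named Dnmt3a1-shRNA2 in the study's methods, and each was studied in baseline or after 4 h of 50 µM bicuculline, an antagonist of GABA-A receptors that releases the network from inhibition. Each of the 4 groups held 4 libraries, which the study describes as separate neuronal preparations. The comparisons ask how these genes respond to neuronal activity, whether reduced Dnmt3a1 changes their level, and whether it changes the response.

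A ribosome holds 1 copy of almost every one of these proteins, and cells therefore make them in matched amounts. Most of their mRNAs begin with a cytosine followed by a run of pyrimidines, the terminal oligopyrimidine (TOP) motif, through which the kinase complex mTORC1 controls their translation. In neurons, ribosomes and ribosomal protein mRNAs are also found in dendrites and axons, and translation is required for lasting synaptic plasticity. The values below are mRNA levels and say nothing of translation.

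The libraries held 28912697 to 29586355 estimated counts each. Dnmt3a gave 293 to 338 CPM (counts scaled to a common library size with TMM factors) in the 8 Control-shRNA libraries and 39.4 to 48.0 CPM in the 8 Dnmt3a1-shRNA libraries, so the groups did not overlap. Markers of neurons summed to 7965 to 8709 CPM in Control-shRNA baseline and to 9710 to 10246 CPM with bicuculline, against 701 to 1084 CPM for markers of astrocytes and 2.24 to 5.52 CPM for markers of microglia in all libraries. The share of mitochondrial genes ranged from 2.73% to 6.60%, and in each of the 4 groups replicate 1 had the highest and replicate 3 the lowest.

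Ribosomal protein mRNAs were abundant in these cultures, and the genes of the 2 subunits spanned a wide range of levels. In TPM, a measure of transcript abundance that is corrected for transcript length and so allows genes to be compared, the 77 genes of the subunits had a median of 396 over the 16 libraries, with 391 for the 60S and 418 for the 40S genes. The highest were Rpl41, the shortest protein of the ribosome, at 2006 TPM, Rplp1, an acidic protein of the stalk that recruits translation factors, at 1799 TPM, Rps2 at 1674 TPM, Rpsa, which also serves as the laminin receptor, at 1293 TPM, and Rps15 at 1126 TPM. At the other end stood Rpl12, which lies at the base of the stalk, at 19.3 TPM, the paralogue Rpl7l1 at 25.4 TPM, Rpl5, which carries 5S rRNA into the large subunit, at 41.8 TPM, Rps19bp1 at 47.3 TPM and the paralogue Rps27l at 56.0 TPM. Neighbours in this order were mostly not separable. In Control-shRNA baseline the libraries of only 6 of the 76 neighbouring pairs of subunit genes did not overlap.

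The low places of Rpl12 and Rpl5 moved when reads on processed pseudogenes were taken into account. These genes have many near-identical copies in the genome, and 299 annotated pseudogenes shared at least 50% of their 31-base words with a member. Of the counts of a member and such copies together, the copies took 93.6% for Rpl12, 79.2% for Rpl5, 57.9% for Rpl27a and 51.1% for Rps23, but over 10% for only 17 members in all. With them added, Rpl12 stood at 581 TPM, Rpl5 at 321 TPM, Rpl27a at 802 TPM and Rps23 at 516 TPM, and the median of the subunit genes at 457 TPM. The mean TPM of 13 tested members rose by over 1.5 times when the copies were added, among them also Rpl31 (302 to 781 TPM), Rps16 (356 to 786 TPM) and Rps6 (322 to 505 TPM). The copies can be transcribed themselves, so the levels of these 13 genes are uncertain. The share of the copies in a library varied little, from 7.06% to 7.85%.

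**Figure D1:**
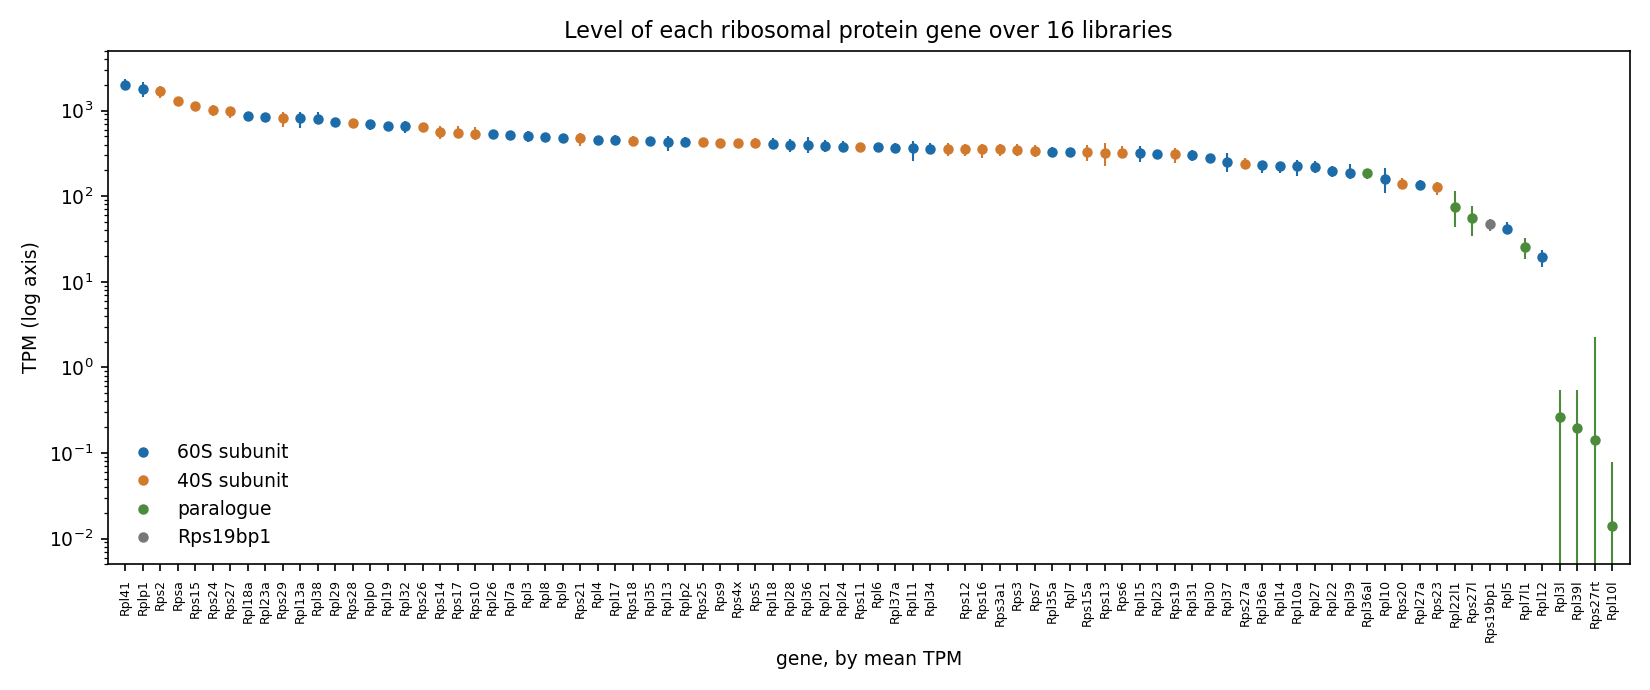
Mean TPM of each of the 86 genes over the 16 libraries (points, log axis) with the lowest and highest library (lines), in order of the mean and coloured by subunit. The subunit genes run from 2006 TPM for Rpl41 to 19.3 TPM for Rpl12, and 4 paralogues lie below 1 TPM.

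The paralogues differed widely in use. Rpl3l, which is known from heart and skeletal muscle, had a mean of 0.260 TPM, Rpl39l and Rpl10l, both known from testis, had 0.198 and 0.0142 TPM, and Rps27rt had 0.142 TPM. These 4 did not pass the filter on low counts and were not tested, which left 82 of the 86 members among the 17222 genes tested. Rpl36al was by contrast nearly as abundant as Rpl36a and took 44.6% ± 2.42 (SD, n = 4) of the TPM of the pair in Control-shRNA baseline, Rpl22l1 took 22.6% ± 2.94 (SD, n = 4) of the pair with Rpl22, Rpl7l1 took 8.23% ± 0.972 (SD, n = 4) of that with Rpl7, and Rps27l took 5.41% ± 0.809 (SD, n = 4) of that with Rps27.

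The starts of these genes were searched for the letters of the TOP motif and for binding motifs. In the RefSeq annotation of GRCm38.p6, 66 members had a window of 250 bases before to 50 bases after a start. A run of at least 5 C or T over the first transcribed base was found in 21 of them (31.8%), against 11.8% of the 27025 genes with a window. CCGGAAG, sought on both strands of the window, was found in 26 (39.4%) against 9.93% of all genes, and GGGCGG, sought the same way, in 41 (62.1%) against 38.2%. Annotated starts can be some bases from the true one, and no match here says only that the letters are not at the annotated place. The windows of 12 bases before to 12 bases after the start are shown for the kinase target Rps6 and the stalk protein Rplp2, both with a run of 10 pyrimidines over the start (capitals), and for Rpl22 and its paralogue Rpl22l1, which have no run over it. Rpl22 has 2 annotated starts, of which 1 is shown, and neither has a run.
Rps6 (chr4:86857356-86857379, minus strand): cggaagtcgggCCTCTTTTTCgtg
Rplp2 (chr7:141447639-141447662, plus strand): gtcagcgTCTTCCTTTCgccgccg
Rpl22 (chr4:152325714-152325737, plus strand): gccctgggaaaagcaatagctggc
Rpl22l1 (chr3:28805496-28805519, plus strand): cggcgcaagcccgttctcttccca

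The summed share of these genes overlapped between the groups. They took 0.949% to 1.07% of the counts in Control-shRNA baseline, 1.06% to 1.10% with bicuculline, 0.991% to 1.17% in Dnmt3a1-shRNA baseline and 1.04% to 1.19% with bicuculline. As a share of TPM, the means were 3.80% ± 0.228, 3.94% ± 0.170, 3.88% ± 0.269 and 3.95% ± 0.271 (SD, n = 4 each) in the same order, and the 4 ranges overlapped. The differences between these means were smaller than the SD of every group. Between libraries of the same number, the share of counts was higher in all 4 pairs with bicuculline in Control-shRNA (by 0.0192 to 0.152 percentage points) and in all 4 with knockdown in baseline (by 0.0324 to 0.103), and the share of TPM was higher in all 4 pairs of both too (by 0.00152 to 0.435 and by 0.0336 to 0.114). With bicuculline in Dnmt3a1-shRNA it was higher in 4 of 4 pairs for counts and 2 of 4 for TPM, and with knockdown with bicuculline in 3 and 2 of 4.

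**Figure D2:**
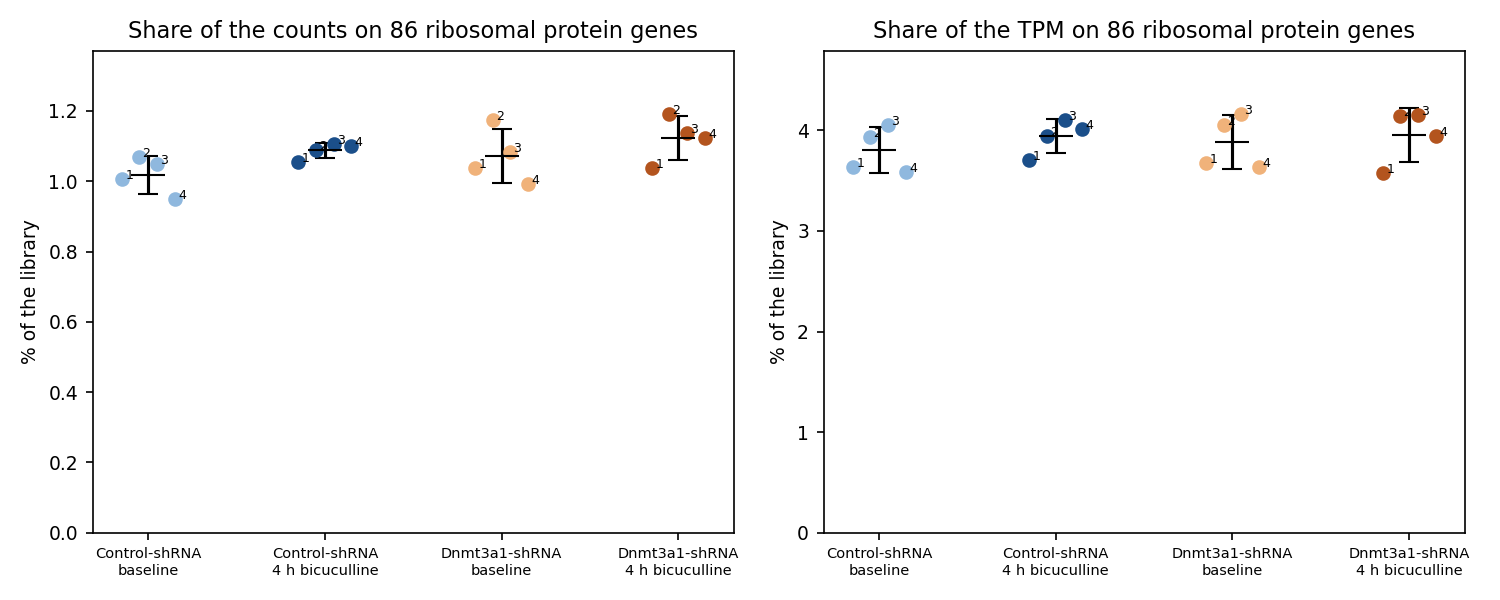
Share of the counts (left) and of the TPM (right) of each library that fell on the 86 genes, by group. Points are libraries with their replicate numbers, and bars are the mean and SD of 4 libraries. The 4 groups overlap on both scales, at 0.949% to 1.19% of the counts and 3.57% to 4.17% of the TPM.

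After bicuculline most ribosomal protein mRNAs were slightly higher relative to the bulk of the transcriptome. In Control-shRNA cultures 59 of the 82 genes tested were higher after 4 h, while none passed in the lower direction (edgeR quasi-likelihood test, Benjamini-Hochberg adjusted p under 0.05 over all genes). Of all genes tested, 41.4% passed, 19.5% higher and 21.9% lower. The median log2 fold change of the members was 0.22, with quartiles of 0.17 and 0.28, against 0.01 for all genes. Both subunits took part, with 35 of 46 genes of the 60S subunit and 23 of 31 of the 40S subunit higher and medians of 0.22 and 0.25. In 55 genes every library with bicuculline was above every baseline library, as in 18.3% of all genes, and no gene showed the opposite, as 21.4% of all genes did. At the study's threshold of an absolute log2 fold change over 0.5, which 21.9% of all genes passed, only Rpl22l1 was called.

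How many genes rose depended on what the libraries were scaled to. With TMM, which sets the bulk of genes to no change, the median of all genes was 0.01, and with the library total it was −0.15. On that scale the median of the members remained positive but was 0.06, and 10 genes passed, 7 higher and 3 lower. With limma on log2(TPM + 1), all genes had a median of −0.14 and the members one of 0.04, and 3 genes passed, all higher. The share of all genes that passed on either scale is not given, so these counts have no background to be read against. The distance between the members and all genes was 0.22, 0.22 and 0.18 on the 3 scales. The rise is therefore one relative to other genes. A shift of the same size was seen in 107 other abundant genes (at least 100 CPM) whose longest transcript was under 1500 nt, a group chosen after the values were seen, with a median of 0.23. Summed markers of neurons were higher with bicuculline too (5 of 8 rose and 1 fell), as were those of GABAergic neurons (6 of 6 rose). Those of excitatory neurons overlapped, with 2523 to 2762 CPM in baseline and 2454 to 2697 CPM with bicuculline (2 of 6 rose and 1 fell). Markers of hippocampal neurons had 452 to 634 CPM and 451 to 499 CPM (0 of 5 passed). Whether the marker levels, transcript length or abundance have a part in the members' shift was not tested.

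**Figure D3:**
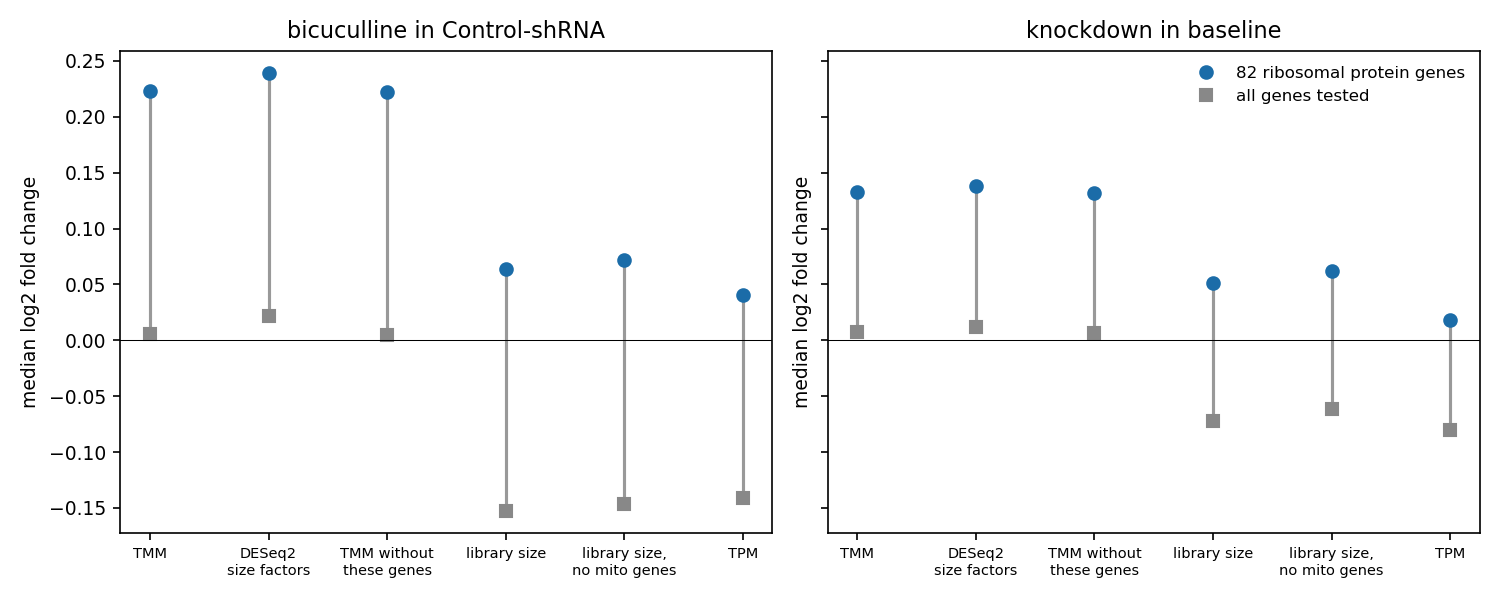
Median log2 fold change of the 82 tested ribosomal protein genes (circles) and of all tested genes (squares) under 6 ways of scaling the libraries, for bicuculline in Control-shRNA (left) and for knockdown in baseline (right). Both medians shift down together without TMM or DESeq2 size factors, and on the left the distance between them is 0.18 to 0.22.

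The largest change of a member was that of Rpl22l1, which encodes a paralogue of the RNA-binding protein Rpl22. Its values were 10.7, 7.53, 9.19 and 10.3 CPM in the Control-shRNA baseline libraries and 25.2, 14.8, 18.5 and 19.9 CPM with bicuculline. The 2 groups did not overlap, and the log2 fold change was 1.06 (SE 0.15, adjusted p = 1.97e-05, edgeR). In Dnmt3a1-shRNA cultures it had 11.6, 8.66, 10.1 and 8.25 CPM in baseline and 21.5, 21.4, 17.4 and 20.7 CPM with bicuculline, again without overlap, and the log2 fold change was 1.07 (SE 0.15, adjusted p = 1.35e-05, edgeR). It passed under all 13 alternative settings and with each of the 16 libraries left out, in both comparisons.

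Rpl22 itself did not follow. It had 78.5, 88.2, 85.5 and 78.2 CPM in Control-shRNA baseline and 72.8, 79.2, 81.3 and 74.3 CPM with bicuculline, groups that overlapped (log2 fold change −0.10, SE 0.08, adjusted p = 0.309, edgeR). In Dnmt3a1-shRNA cultures it fell from 97.3, 106, 96.7 and 92.1 CPM to 73.4, 95.2, 87.8 and 78.0 CPM (log2 fold change −0.23, SE 0.08, adjusted p = 0.0200, edgeR), although replicate 2 with bicuculline was above the lowest baseline library. It passed in 13 of 16 fits with a library left out and in 10 of 13 other settings. The TPM share of Rpl22l1 in the pair was accordingly 33.6% ± 3.91 (SD, n = 4) with bicuculline in Control-shRNA, against 22.6% in baseline, and 32.1% ± 2.70 (SD, n = 4) against 20.3% ± 2.75 (SD, n = 4) in Dnmt3a1-shRNA. The lowest stimulated library had 29.3% and the highest baseline library 25.2%. In the pair of Rpl7 and Rpl7l1, Rpl7 rose (0.22 and 0.21 on the log2 scale) while Rpl7l1 did not pass in Control-shRNA (adjusted p = 0.207, edgeR) and fell by 0.26 in Dnmt3a1-shRNA (adjusted p = 0.0147, edgeR). The share of Rpl36al in its pair stayed between 41.4% and 49.8% in all libraries.

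Next to Rpl22l1 the changes were moderate. Rplp0, the scaffold of the stalk, had 377, 388, 352 and 351 CPM in Control-shRNA baseline and 505, 479, 461 and 468 CPM with bicuculline, which did not overlap (log2 fold change 0.38, SE 0.06, adjusted p = 8.39e-05, edgeR). In Dnmt3a1-shRNA it had 401, 426, 363 and 350 CPM against 504, 495, 482 and 510 CPM (log2 fold change 0.37, SE 0.06, adjusted p = 8.85e-05, edgeR). Its partners in the stalk, Rplp1 and Rplp2, rose by 0.30 and 0.25 on the log2 scale in Control-shRNA and by 0.29 and 0.31 in Dnmt3a1-shRNA. Rpl41 rose by 0.37 and 0.44, and Rps12 by 0.36 and 0.34. Rps6, the substrate of the S6 kinases, rose by 0.34 and 0.29, Rpsa by 0.35 and 0.23, Rpl3, which lines the peptidyl transferase centre, by 0.30 and 0.23, and the X-linked Rps4x by 0.26 and 0.22.

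Rpl10, a protein that joins the 60S subunit late in its maturation and is encoded on the X chromosome, had the second largest estimate and a wide spread. Its values were 35.2, 43.6, 44.8 and 32.5 CPM in Control-shRNA baseline and 43.6, 70.0, 49.97 and 53.8 CPM with bicuculline, so that the groups overlapped. The log2 fold change was 0.48 (SE 0.16, adjusted p = 0.0256, edgeR) in Control-shRNA and 0.47 (SE 0.16, adjusted p = 0.0242, edgeR) in Dnmt3a1-shRNA. Leaving out 1 library at a time, it passed in 12 of 16 fits and in 10 of 16 fits, with adjusted p up to 0.112 and 0.0790.

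Of 21 tested genes listed for their roles or as paralogue pairs, 12 rose with bicuculline in Control-shRNA (19.5% of all genes). The other 9 did not pass (adjusted p from 0.180 to 0.938, edgeR). The latter included Rpl5 and Rpl11, the pair that binds 5S rRNA and can hold the p53 regulator Mdm2. Rpl5 had 31.2 ± 1.87 CPM in baseline and 31.5 ± 3.44 CPM with bicuculline, and Rpl11 had 89.1 ± 7.43 CPM and 87.8 ± 13.4 CPM (SD, n = 4 each). With its pseudogene copies added, Rpl5 had a log2 fold change of 0.15 (adjusted p = 0.0352, edgeR), so its call changes with how reads on the copies are counted. Rps19bp1, the member that is not part of the ribosome, did not pass in any comparison.

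In Dnmt3a1-shRNA cultures 50 of the 82 genes rose with bicuculline and 3 fell, with 46.0% of all genes passing, 20.8% higher and 25.2% lower. The members' median was 0.20 against −0.01 for all genes and 0.09 for other genes of at least 100 CPM. The 107 of the latter with a longest transcript under 1500 nt had a median of 0.25, above that of the members. The libraries did not overlap for 35 genes that were higher (18.4% of all genes) and for 1 that was lower (22.1% of all genes). In both shRNA conditions 44 genes rose, which is 74.6% of those in Control-shRNA and 88.0% of those in Dnmt3a1-shRNA. Another 14 passed in neither. The share of all genes that rose in both conditions is not given, so this overlap has no background to be read against. The 3 that fell were Rpl22 and Rpl7l1, given above, and Rps15a, which went from 118, 120, 117 and 113 CPM to 101, 112, 105 and 102 CPM (log2 fold change −0.15, SE 0.05, adjusted p = 0.0209, edgeR). In Control-shRNA the baseline level of Rps15a was lower, at 97.3 ± 4.26 CPM, and with bicuculline it was 94.7 ± 2.82 CPM (SD, n = 4 each). With the library total as the scale 9 genes passed, 6 higher and 3 lower. With log2(TPM + 1) 3 passed, all higher, again with no share of all genes given. The count was 35 without replicate 2 of Dnmt3a1-shRNA with bicuculline and 35 without replicate 4 of Dnmt3a1-shRNA in baseline.

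The test of the difference between the responses, an interaction term in the same edgeR fit, called 0 of the 82 members and 0 of the 17222 genes (0.0% of all genes). At an unadjusted p under 0.05 it gave 0 members and 852 genes. The members' interaction estimates lay between −0.16 and 0.21 on the log2 scale. DESeq2 and voom with limma also gave 0 members.

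**Figure D4:**
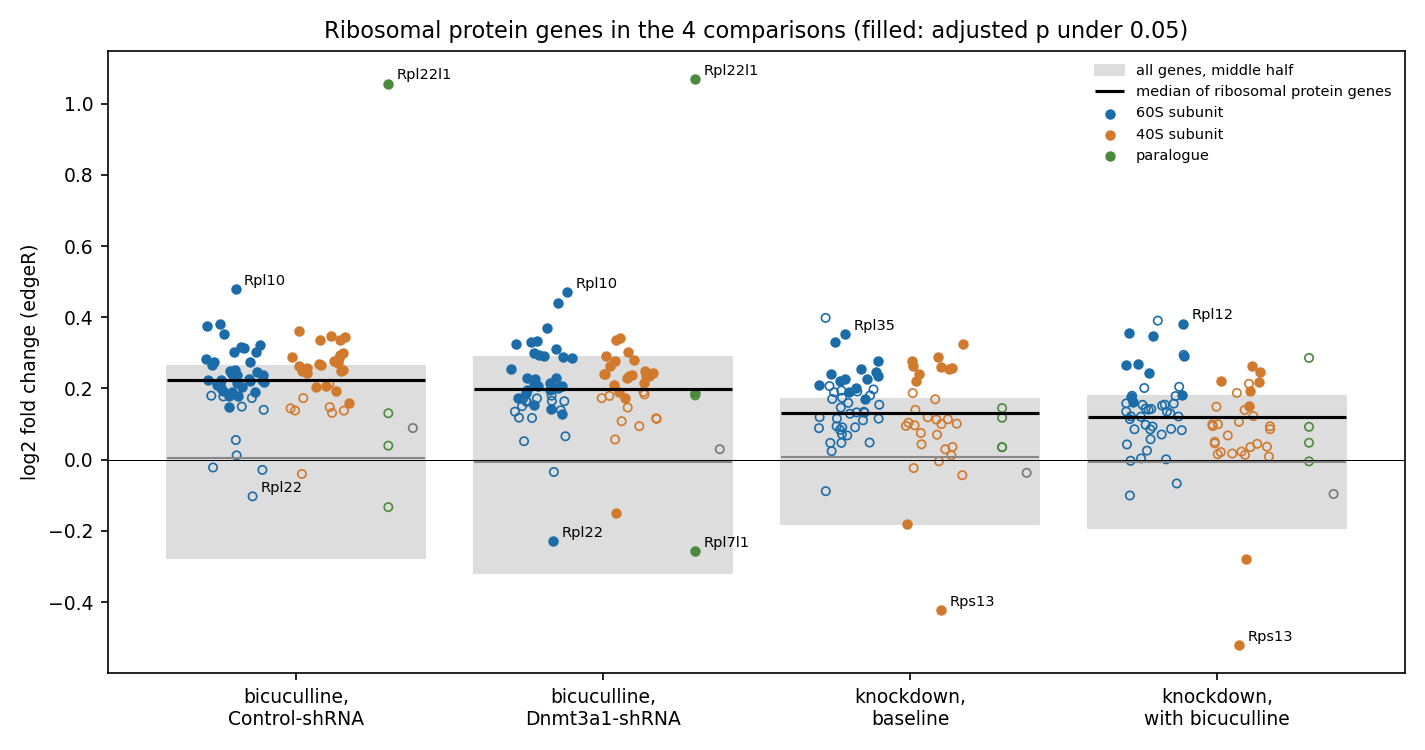
Log2 fold changes of the 82 tested genes in 4 comparisons, by class (filled points pass at adjusted p under 0.05, open points do not). Black lines are the members' medians (0.22, 0.20, 0.13 and 0.12 from left to right), grey lines are the medians of all genes and grey boxes run between their quartiles. Grey circles are Rps19bp1. Rpl22l1 stands alone above with bicuculline, and Rps13 stands lowest after knockdown.

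Fewer genes passed when Dnmt3a1-shRNA was compared with Control-shRNA. All knockdown values rest on a single shRNA sequence, so effects of reduced Dnmt3a1 and other effects of that sequence cannot be told apart. Without bicuculline 23 of the 82 rose and 2 fell after knockdown, while 16.3% of all genes passed, 8.12% higher and 8.19% lower. The members' median was 0.13 against 0.01 for all genes, with 14 of the 46 genes of the 60S subunit higher and none lower, and 9 of the 31 genes of the 40S subunit higher and 2 lower. With bicuculline 16 genes were higher and 2 lower, while 17.7% of all genes passed, 7.69% higher and 9.99% lower, and the median was 0.12 against −0.01. Every knockdown library was above every control library for 30 genes in baseline (9.62% of all genes) and for 23 with bicuculline (9.48%), and below for 2 in each state (10.3% and 11.4%). Other genes of at least 100 CPM had medians of 0.09 in baseline and 0.06 with bicuculline, and 28.5% and 26.3% of them passed, against 30.5% and 22.0% of the members. The 107 of them with a longest transcript under 1500 nt had medians of 0.14 and 0.14, no lower than those of the members. Higher in both states were 12 genes, among them Rpl35, Rpl32, Rpl41, Rpl7, Rps2, Rps3 and Rps15a. The share of all genes higher in both states is not given, so this overlap has no background either. The counts after knockdown too depended on the scale. With the library total 5 genes passed in baseline, 3 higher and 2 lower, and 6 with bicuculline, 4 higher and 2 lower. With log2(TPM + 1) 2 genes passed in each state, both lower. No share of all genes is given on these scales. With the replicate number as a block, 63 and 67 members passed for bicuculline in Control-shRNA and Dnmt3a1-shRNA (50.8% and 54.6% of all genes), 33 and 31 for knockdown in baseline and with bicuculline (27.5% and 30.0%), and 0 for the interaction (0.0174%). In baseline the count was 12 without replicate 4 of Control-shRNA and 16 without replicate 2 of Dnmt3a1-shRNA. With bicuculline it was 8 without replicate 2 of Dnmt3a1-shRNA and 10 without replicate 3 of Control-shRNA.

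Among the members that passed, the largest rises after knockdown in baseline were those of Rpl35 (0.35), Rpl32 (0.33), Rps2 (0.32), Rps10 (0.29) and Rps7 (0.28 on the log2 scale), with adjusted p from 0.00264 to 0.0200 (edgeR). Rpl35 had 106, 99.98, 104 and 99.3 CPM in control libraries and 134, 137, 123 and 128 CPM in knockdown libraries, which did not overlap. Of the 21 genes listed for their roles or as paralogue pairs 5 rose in baseline and 3 with bicuculline (8.12% and 7.69% of all genes). Rpl22 was among them in baseline, where it rose by 0.25 (adjusted p = 0.0341, edgeR), a call kept in 10 of 16 fits with a library left out. Rpl10 had a larger estimate in both states (0.40 and 0.39) but did not pass (adjusted p = 0.111 and 0.107, edgeR), nor did Rps4x in baseline (adjusted p = 0.0507, edgeR). In baseline Rpl10 and Rps4x passed with the replicate number as a block (adjusted p = 0.00558 and 0.00785, edgeR). With bicuculline the largest rises among the members that passed were those of Rpl12 (0.38), Rpl39 (0.36), Rpl36 (0.35), Rpl41 (0.29) and Rpl35 (0.27), with adjusted p from 0.00401 to 0.0262 (edgeR). Rpl12 is 1 of the 13 genes whose level is uncertain through their copies. With the copies added its log2 fold changes were 0.29 in baseline and 0.28 with bicuculline, and Rpl5 then rose by 0.27 and 0.19. Summed markers of neurons had 8853 to 9912 CPM in Dnmt3a1-shRNA baseline against 7965 to 8709 CPM in Control-shRNA baseline (2 of 8 rose), those of GABAergic neurons 1307 to 1529 against 1705 to 2042 CPM (3 of 6 fell), and those of astrocytes 714 to 1043 against 701 to 903 CPM (1 of 8 rose). In the same order, markers of excitatory neurons had 2314 to 2544 against 2523 to 2762 CPM, although 2 of 6 rose. Those of hippocampal neurons had 495 to 743 against 452 to 634 CPM (1 of 5 rose). The part of these markers in the shift was not tested. In bulk RNA more cells of a kind and more RNA per cell cannot be told apart.

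Rps13, a protein of the small subunit, had the largest fall after knockdown in both states. It had 76.9, 72.9, 70.8 and 65.2 CPM in the control libraries in baseline and 54.0, 59.9, 52.7 and 46.7 CPM in the knockdown libraries. With bicuculline it had 94.8, 91.3, 88.9 and 86.2 against 62.4, 59.8, 63.2 and 66.4 CPM. All knockdown libraries lay below all control libraries of the same state, with log2 fold changes of −0.42 (SE 0.07, adjusted p = 0.000499, edgeR) and −0.52 (SE 0.07, adjusted p = 6.77e-05, edgeR). Rps13 nevertheless rose with bicuculline in both conditions, by 0.34 and 0.24 on the log2 scale. It passed in all 13 settings and with every single library left out in both states. The fall of Rps13 with bicuculline was the only change of a member beyond the study's threshold of 0.5 after knockdown, which 5.83% of all genes passed in baseline and 5.89% with bicuculline.

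**Figure D5:**
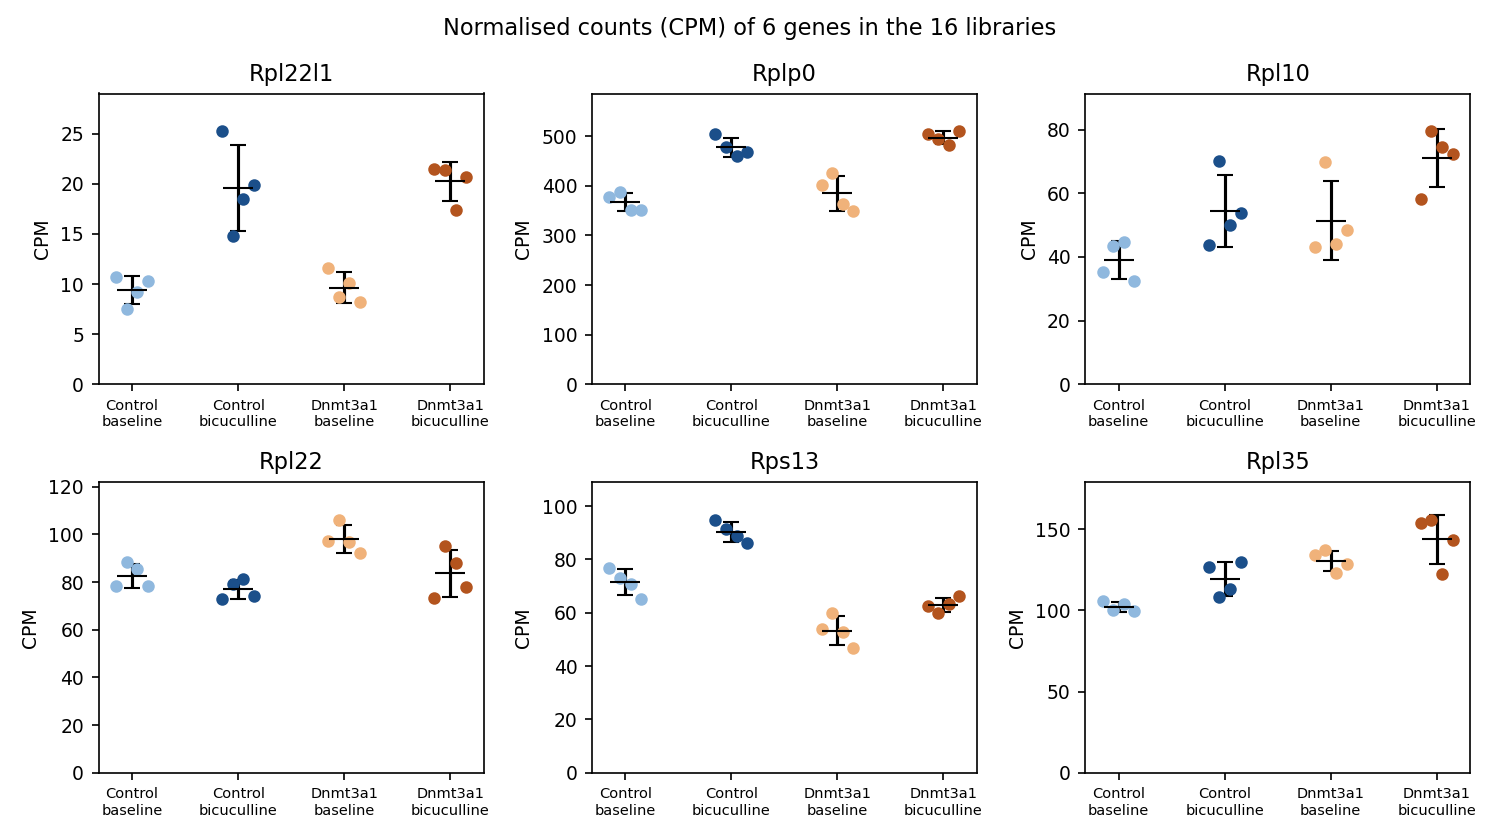
CPM of 6 genes in each library, by shRNA (Control-shRNA or Dnmt3a1-shRNA) and state. Points are libraries, and bars are the mean and SD of 4. Rpl22l1 and Rplp0 are higher with bicuculline in both conditions, Rpl10 spreads widely, Rpl22 overlaps between states in Control-shRNA, Rpl35 is higher with Dnmt3a1-shRNA in baseline, and Rps13 is lower with Dnmt3a1-shRNA in both states.

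Rps13 shares a short sequence with the shRNA. The letters GAAAGGA lie within the Dnmt3a1-shRNA2 sequence that the methods give, and were sought on the sense strand of the protein-coding transcripts of GENCODE M21. This word lies in the middle of the shRNA sequence. No reason sets it apart from the other 7-base words of the shRNA, which were not sought. Of the 82 members 10 hold it (12.2%), against 38.9% of the 14481 tested genes with such a transcript. Among the 11428 of these with a longest transcript of 383 to 5179 nt, the range of the tested members, 31.8% hold it. The median longest transcript of all members, tested or not, was 1076.5 nt. Lengths within the range were not matched to those of the members, so these shares do not compare genes of like length. The site of Rps13 is shown with those of Rps6 and Rps24, which hold the same letters (capitals) in their coding sequence and did not pass.
Rps13 (across an exon junction of Rps13-201, chr7:116332478-116332933, minus strand): agaggaacaGAAAGGAtaaggatgc
Rps6 (across an exon junction of Rps6-201, chr4:86856012-86856150, minus strand): cattgtaaaGAAAGGAgagaaggat
Rps24 (Rps24-201, chr14:24493423-24493429, plus strand): gaaaacagcGAAAGGAacgcaagaa
The coordinates are those of the first and last of the 7 letters on GRCm38.p6, and hold an intron where the site crosses a junction. Rps6 and Rps24 had log2 fold changes of 0.07 and 0.10 in baseline (adjusted p = 0.561 and 0.471, edgeR) and of 0.02 and 0.05 with bicuculline (adjusted p = 0.872 and 0.733, edgeR). The match is a description, and whether it has a part in the lower level of Rps13 was not tested.

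Other genes of the same machinery were read from the same fit. Among proteins of the ribosome that the naming rule leaves out, Fau and Rack1 rose by 0.26 and 0.31 on the log2 scale with bicuculline in Control-shRNA, and by 0.24 and 0.27 in Dnmt3a1-shRNA. Neither passed after knockdown. Of 20 other genes with TOP mRNAs, mostly elongation and initiation factors, 13 were higher and 0 lower with bicuculline in Control-shRNA (median 0.23), where 19.5% of all genes were higher and 21.9% lower, led by Vim, an intermediate filament, at 1.09 and Tpt1, a growth-linked protein, at 0.71. In Dnmt3a1-shRNA, where 20.8% of all genes were higher and 25.2% lower, 9 were higher and 2 lower, the latter Eif4b (−0.25) and Eif3e (−0.16). After knockdown 7 were higher in baseline (8.12% of all genes), led by Hnrnpa1 (0.48), and 4 were higher and 1 lower with bicuculline (7.69% and 9.99% of all genes).

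Proteins of the mitochondrial ribosome, which are encoded by nuclear genes of their own, fell more often than they rose with bicuculline. Of 78 tested, 3 were higher and 29 lower with bicuculline in Control-shRNA and 1 higher and 39 lower in Dnmt3a1-shRNA, with medians of −0.08 and −0.19, while 19.5% and 20.8% of all genes were higher and 21.9% and 25.2% lower. Mrpl44 fell by 0.62 and by 0.91 and Mrps31 fell by 0.60 and by 0.88 on the log2 scale. After knockdown 0 were higher and 4 lower in baseline, where 8.19% of all genes were lower, and 0 higher and 14 lower with bicuculline, where 9.99% were. Mrpl18 fell by 0.80 in each state and Mrps27 fell by 0.46 and by 0.67.

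Factors that build ribosomes changed in both directions. Of 54 tested, 10 were higher and 15 lower with bicuculline in Control-shRNA (19.5% and 21.9% of all genes), with a median of −0.00363, and 15 were higher and 20 lower in Dnmt3a1-shRNA (20.8% and 25.2% of all genes). Myc, a transcription factor that drives ribosome synthesis, rose by 1.10 and Rrp1b, a nucleolar protein, by 0.85 in Control-shRNA, while Polr1b, a subunit of RNA polymerase I, fell by 0.82 and Tcof1, a nucleolar cofactor of that polymerase, fell by 0.57. In Dnmt3a1-shRNA Rrp1b rose by 1.04 and Fbl, the methyltransferase of rRNA, by 0.96, while Taf1b, a subunit of a factor that recruits RNA polymerase I, fell by 0.96. After knockdown 1 was higher and 7 lower in baseline (8.12% and 8.19% of all genes), and 2 higher and 9 lower with bicuculline (7.69% and 9.99%). A list of 26 tested genes held those of mTORC1 and kinases named for S6, the Rps6ka genes among them. With bicuculline 6 were higher and 12 lower in Control-shRNA (19.5% and 21.9% of all genes). In Dnmt3a1-shRNA 4 were higher and 12 lower (20.8% and 25.2% of all genes). Rheb, the GTPase that switches mTORC1 on, rose by 1.36 and by 1.47 in the 2 conditions, and Rps6ka2 by 0.92 in Control-shRNA. Pdcd4, an inhibitor of the helicase Eif4a and a target of S6 kinase, fell by 1.05 and by 0.89, and the kinase Rps6ka5 fell by 0.76 and by 0.80. After knockdown 2 were higher in baseline (8.12% of all genes), Rps6ka2 and Eif4ebp2, and 2 lower with bicuculline (9.99%), Rps6kc1 and Tsc1.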

How the data were processed

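The 16 libraries were grouped by their labels, and the 86 genes and the gene lists were chosen with earlier results of these data known. The authors trimmed the reads with Trim Galore 0.6.4, quantified them with kallisto on GRCm38.p6 transcripts (version 0.4.6 per the processing notes) and deposited, per gene and library, an estimated count and a TPM value. A quantification that divides reads among near-identical copies can move counts between a gene and its pseudogenes. The Ensembl identifiers were named from GENCODE M21. Estimated counts were rounded and tested with edgeR 4.0.16 (R 4.3.3): TMM scaling, filterByExpr, 1 quasi-likelihood fit of the 4 groups without a block, Benjamini-Hochberg adjustment over 17222 genes. CPM values are TMM-normalised. The test was run on simulated counts first.

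Alternatives were DESeq2 1.42.0 and its size factors, voom with limma 3.58.1, library size, TMM without these genes, other filters, limma on log2(TPM + 1) and log2(TPM + 0.1), only the groups compared, the replicate number as a block, and each library left out. Pseudogene counts added to their gene, and library size without mitochondrial genes, were chosen after seeing the data. The distances of libraries with the same number from the mean of their group were correlated across genes. The correlations were 0.142 to 0.221 for bicuculline in Control-shRNA and 0.204 to 0.355 for knockdown in baseline. The numbers were therefore taken to pair these samples. The main fit still had no block, so its counts and p-values for these comparisons leave the pairing out. Values from the fit with the block are named as such. For bicuculline in Dnmt3a1-shRNA (0.0631 to 0.337) and knockdown with bicuculline (0.0667 to 0.388) 3 of 4 correlations were over 0.1, and the samples were not treated as paired, since all 4 were required. Named genes were those with set roles or a paralogue, the 5 members with the largest change per direction and comparison, the 5 highest and lowest in TPM, and the 2 genes with the largest change per direction of each list. Some genes named by this rule are not reported here.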

Additional observations from a re-analysis of the deposited data

Results flagged for a closer look

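In 3 of 116 sets of 4 libraries (27 named genes and the summed shares, each in 4 groups) 1 library stood apart from the other 3 by Dixon's criterion, fewer than the 1 in 20 that chance gives. Rpl12 had 10.3 CPM in replicate 1 of Control-shRNA with bicuculline, against 7.43 to 7.74 CPM in the others. Rpl7 had 144 CPM in replicate 4 of Dnmt3a1-shRNA in baseline, against 159 to 161 CPM. Rps6 had 165 CPM in replicate 2 of Dnmt3a1-shRNA with bicuculline, against 125 to 129 CPM, and without this library its log2 fold change with bicuculline was 0.18.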

How the results depend on the processing

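The members' median log2 fold change stayed positive in both bicuculline and both knockdown comparisons, but with log2(TPM + 1) it went from 0.22 to 0.0407 and from 0.20 to 0.00642 for bicuculline in Control-shRNA and Dnmt3a1-shRNA, and from 0.13 to 0.0185 and from 0.12 to 0.00897 for knockdown in baseline and with bicuculline. With library size the 4 medians were 0.0638, 0.0510, 0.0511 and 0.0512, and without replicate 2 of Dnmt3a1-shRNA with bicuculline the last comparison had 0.0788. The number of genes that passed fell with any scale other than TMM or DESeq2 size factors. For bicuculline in Control-shRNA it was 59, against 10 with library size, 12 with library size without mitochondrial genes, 3 with log2(TPM + 1), 1 with log2(TPM + 0.1) and 1 at an absolute log2 fold change over 0.5. For bicuculline in Dnmt3a1-shRNA it was 53, against 9, 12, 3, 3 and 1 in that order. For knockdown in baseline it was 25, against 5, 7, 2, 2 and 0, and for knockdown with bicuculline 18, against 6, 8, 2, 2 and 1, with 11 when no filter on low counts was used. Shares of all genes are given above only for the TMM fit with or without a block, so the counts on other scales have no background. Which scale is nearer to the amount per cell was not tested. With 1 library left out the counts were 45 to 61, 35 to 58, 12 to 26 and 8 to 21. With the replicate block the counts were 63 and 33 in the paired comparisons (bicuculline in Control-shRNA, knockdown in baseline), where it changed no call of a gene given as passing, and 67 and 31 in the others, where 3 of 4 pairs correlated over 0.1. The interaction stayed at 0 in all settings, and its members' median of −0.02 ranged from −0.0711 to 0.00163 with 1 library left out, the latter without replicate 2 of Dnmt3a1-shRNA in baseline. Among the genes given as passing, leaving out 1 library at a time kept the call in 13 of 16 fits for Rplp1 in each bicuculline comparison, in 15 for Rpl7l1 and 14 for Rps15a with bicuculline in Dnmt3a1-shRNA, in 15 for Rps10 and 13 for Rps7 with knockdown in baseline, and in 11 for Rpl12, 15 for Rpl36 and 12 for Rpl35 with knockdown with bicuculline. Rpl36al, which rose by 0.19 with bicuculline in Dnmt3a1-shRNA, had −0.0334 with log2(TPM + 1) and −0.0336 with log2(TPM + 0.1), and it passed in 4 of 16 fits with a library left out. The mean share of the members in the counts of a library, 1.02%, 1.09%, 1.07% and 1.12% in Control-shRNA baseline, Control-shRNA bicuculline, Dnmt3a1-shRNA baseline and Dnmt3a1-shRNA bicuculline, was 3.80%, 3.94%, 3.88% and 3.95% of the TPM. Depth did not limit the 82 tested members, which all had at least 173 counts in each library, and the 4 untested ones were near 0.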
